A study of Oryza sativa with 20 samples.

Results

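The 138 array features described here had lower ratios of chilled over control shoots late in the chilling of rice seedlings, at 12 or 24 hours. For 49 of them, described below, what was spotted is not given in the sources used here. The 138 were chosen from a table of 6080 features, of which they make up 2.27%. Values are log2 ratios, chilled shoots over control shoots, so a value of -1 is a 2-fold decrease. A feature was a member when its ratio was -0.848 or less, which is 1.8-fold lower, in both biological replicates at 12 hours or in both at 24 hours, and when it did not reach 0.848 or more in both replicates at any of the 5 time points. A total of 142 features passed the first condition, and 4 of them were left out by the second. The 12-hour and 24-hour values therefore chose the members and are given below as a description only. Of the 138 members, 83 met the threshold at 12 hours only, 43 at 24 hours only and 12 at both times.

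The plants were seedlings of Oryza sativa CT6748-8-CA-17, a japonica cultivar that tolerates chilling, grown to the S3 stage at 29°C. Shoots kept at 10°C for 0.5, 2, 6, 12 or 24 hours were each compared with shoots kept at 29°C for the same time, in 2 independent biological replicates (R1 and R2). By the labels and the methods, the chilled sample was labeled with Cy3 and its own control with Cy5 on the same slide, without a dye swap. The direction of R2 at 2 hours is in doubt, as described below. An effect of the dye cannot be told apart from that of chilling. The array carried cDNAs from a subtracted library of cold-stressed seedlings and from a normalized drought library, and each of the 10 slides held every feature in duplicate. Each time point had its own controls, so the comparisons shared no samples. Whole shoots were used, and fewer cells of a type and less RNA per cell cannot be told apart. Only ratios were analyzed, so the tissue could not be checked by the level of leaf markers.

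Rice comes from warm regions, and a seedling moved from warmth to chilling slows leaf growth and the building of its photosynthetic membranes while light absorption goes on. Transcripts for chlorophyll synthesis and light harvesting, for wall loosening, for sucrose synthesis and for the phenylpropanoid pathway, which supplies lignin and other phenolics, are among those known to follow temperature and growth in leaves. Rice leaves also make diterpenoid phytoalexins, antimicrobial compounds formed by dedicated cyclases and cytochrome P450 enzymes, and they sense chitin, a component of fungal walls, at the cell surface.

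Between the replicates, log2 ratios over all features correlated at r = 0.07 after 0.5 hours, where they were least alike, and at r = 0.43, 0.34, 0.37 and 0.39 at the later times in order. The 2-hour value holds with the sign of both R2 spot sets turned. As deposited they gave r = -0.43, although their labels name the same dyes, so the labels alone do not settle the direction of that replicate. Values of R2 at 2 hours are printed with the sign turned, and each has the opposite sign as deposited. One spot set of R2 at 6 hours has a source name with another time for its chilled channel and was kept at 6 hours by its title. The column medians, from -0.03 to 0.63 with the 2-hour sign of R2 turned, were set to 0, and every ratio is relative to the median feature of its column.

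More than 1 in 3 of the members came from a small fraction of the table. The 6080 features fall into 16 runs of 380, and the last 8 positions of each run, 128 features or 2.11% of the table, held 49 members or 35.5% of them. At these positions 38.3% of the features were members, against 1.5% elsewhere. None of the 128 had a gene in the platform annotation. Their duplicate spots differed by a median of 2.21 on the log2 scale, against 0.19 for all other features, and 43.9% of their spot values were missing, against 0.633%. The replicate correlation among them was between -0.19 and 0.09 over the 5 time points. What was spotted there is not given in the sources used here.

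**Figure D1:**
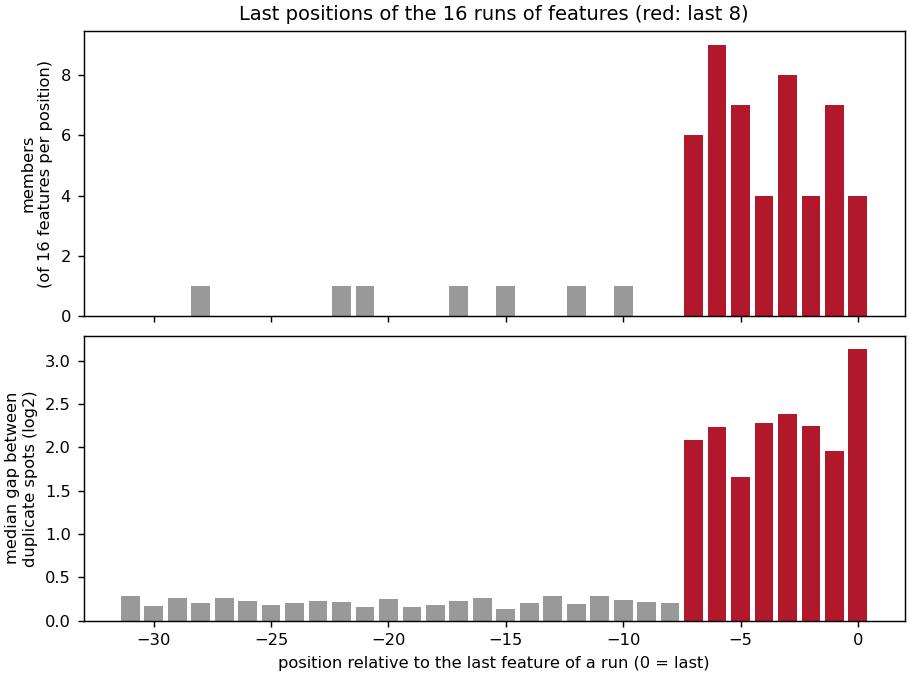
Number of members (upper) and median absolute difference between duplicate spots in log2 units (lower) at the last 32 positions of the 16 runs, 16 features per position. The red bars are the last 8 positions, with 4 to 9 members each and spot differences of 1.66 to 3.13, and no earlier position shown had more than 1 member.

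Of the 49 members at the run ends, 36 met the threshold at 12 hours only, 8 at 24 hours only and 5 at both. In 29 of them at least 1 spot value lay beyond 5 in size. Only 3 had all 4 spots present and at or below the threshold at a time that chose them. A missing spot counted as not past the threshold, and 39.9% of their spot values were missing, against 1.12% for members elsewhere. The other 89 members had duplicate spots that differed by a median of 0.15, close to the 0.19 of all features outside the run ends, and 45 of them had every spot past the threshold. Of these 89, 76 had a gene, 71 with 1 gene and 5 with several. The remaining 13 had none, and their means ranged from -2.2 to -0.55 at 12 hours and from -3.21 to -0.48 at 24 hours. The lowest of these 13 had log2 ratios of -2.89 (R1) and -1.52 (R2) at 12 hours and -4.27 and -2.15 at 24 hours, and it was also below 0 at 6 hours (-1.56 and -0.25). The 76 members with a gene, 1.78% of 4269 such features, are described from here on. The threshold was met in both replicates by 1.06% of features with a gene at 12 hours and by 0.821% at 24 hours. Of them 41 met the threshold at 12 hours only, 31 at 24 hours only and 4 at both times, and 36 had every spot past it.

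**Figure D2:**
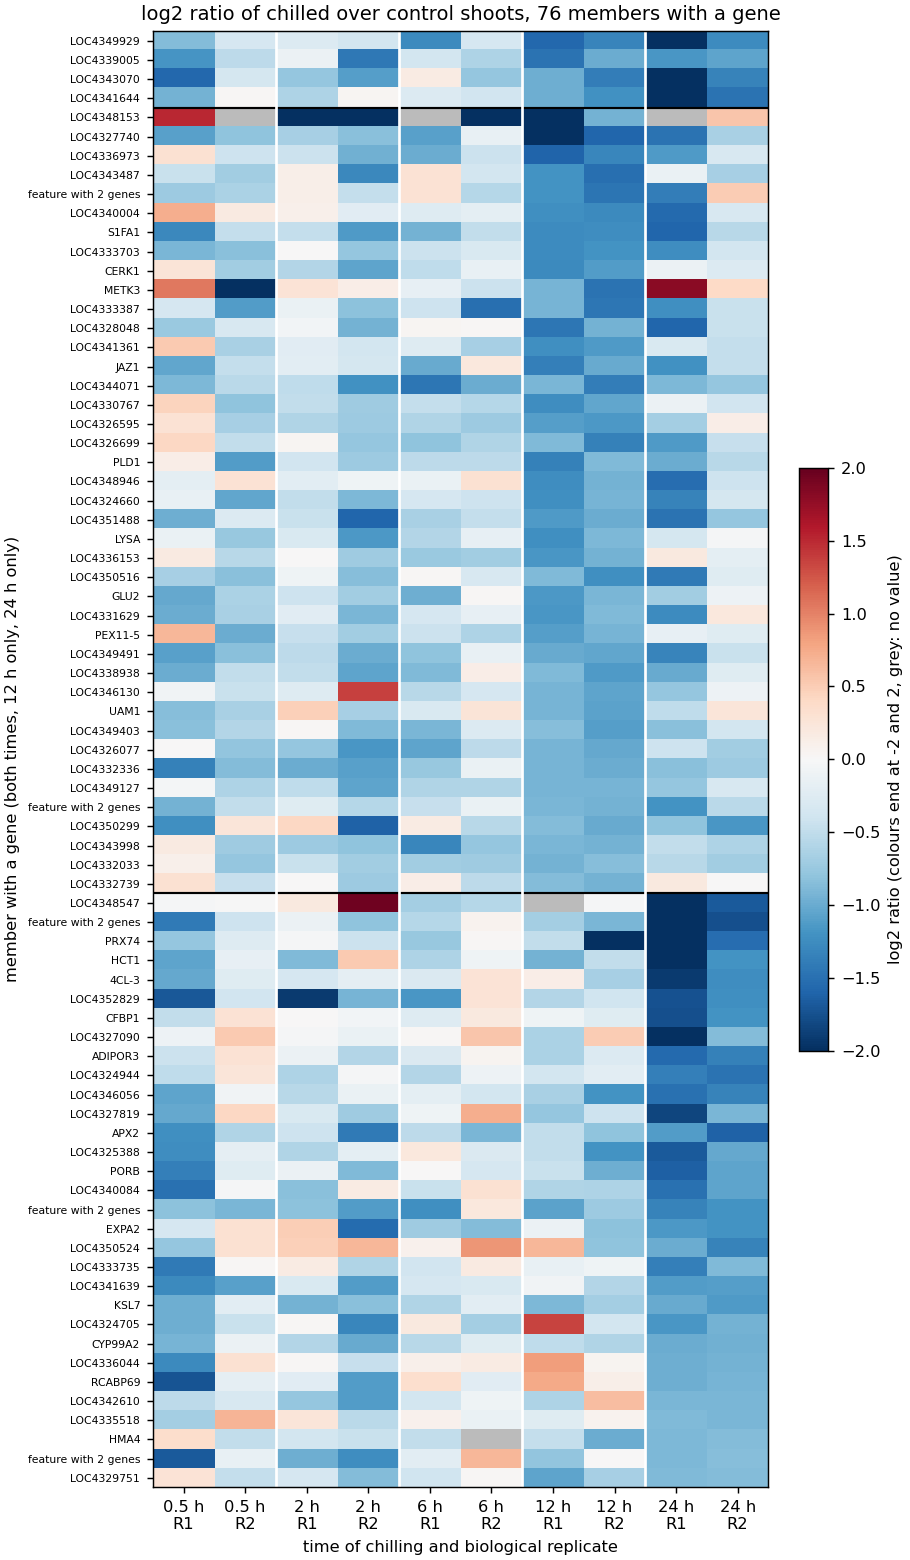
Log2 ratio of chilled over control shoots for the 76 members with a gene (lines) in the 10 biological samples (columns, R1 and R2 at each time), ordered by the time that chose them. Blue is lower and red is higher after chilling. The blocks show the 4 members low at both times, then 41 chosen at 12 hours and 31 chosen at 24 hours, with few values above 0 in the 12-hour and 24-hour columns.

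PORB, RCABP69 and CFBP1 were chosen at 24 hours. PORB encodes the light-dependent protochlorophyllide reductase of chlorophyll synthesis. Its log2 ratio at 24 hours was -1.64 in R1 and -1.05 in R2, a mean of -1.34 ± 0.42 (SD, n = 2) or 2.53-fold lower. At 12 hours it was -0.45 and -0.98, with 1 replicate past the threshold. RCABP69 encodes a chlorophyll a/b-binding protein of the light-harvesting antenna. It was at -0.97 and -0.93 at 24 hours but at 0.75 and 0.11 at 12 hours, and its 24-hour mean was -0.84 without centring, outside the threshold. CFBP1, the cytosolic fructose-1,6-bisphosphatase of sucrose synthesis, stood at -1.76 and -1.2 at 24 hours, 2.79-fold lower in the mean. Its R2 value rested on duplicate spots of -0.47 and -1.94, so with the first spot set alone it did not meet the threshold. At 12 hours it was at -0.08 and -0.25, and at 2 hours at 0.01 and -0.05, so its 24-hour values stood apart from the earlier ones in both replicates.

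HCT1, 4CL-3 and PRX74 were among the lowest named members at 24 hours. HCT1, a hydroxycinnamoyl transferase, was at -2.04 (R1) and -1.19 (R2), and 4CL-3, a 4-coumarate:CoA ligase that activates cinnamic acids, was at -1.91 and -1.25. PRX74, a class III peroxidase of the secreted family that acts on wall phenolics, was at -2.31 and -1.53, or 3.79-fold lower. R1 was the lower replicate in all 3. At 12 hours none of the 3 passed the threshold in both replicates: 4CL-3 was at 0.14 and -0.67, HCT1 at -0.94 and -0.49, and PRX74 at -0.49 and -2.12. In each of the 3, every spot at 24 hours was past the threshold.

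A pair of genes of diterpenoid phytoalexin synthesis were lower by about the same amount in both replicates. KSL7, a diterpene cyclase on the way to phytocassanes, was at -1.01 and -1.14 at 24 hours and at -0.9 and -0.68 at 12 hours. CYP99A2, a cytochrome P450 of momilactone synthesis, was at -0.99 and -0.96 at 24 hours and at -0.51 and -0.6 at 12 hours. At 2 hours KSL7 was at -0.94 and -0.83 and CYP99A2 at -0.59 and -1.01 with the sign turned, and both genes were then below 0 in all 10 samples. As deposited, R2 at 2 hours was at 0.83 for KSL7 and 1.01 for CYP99A2.

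CERK1 and JAZ1 were chosen at 12 hours. CERK1 encodes the receptor kinase of chitin sensing. It was at -1.27 and -1.12 at 12 hours, 2.29-fold lower, and at -0.12 and -0.28 at 24 hours, so its low values were confined to 12 hours among the late samples. JAZ1 encodes a repressor of jasmonate responses. It was at -1.36 and -1.01 at 12 hours and at -1.21 and -0.48 at 24 hours, where only R1 passed the threshold. In both genes every spot at 12 hours was past the threshold.

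Wall and growth genes were found in both groups. EXPA2, an expansin that loosens cell walls, was at -1.15 and -1.2 at 24 hours and at -0.11 and -0.82 at 12 hours. GLU2, an endo-1,4-beta-glucanase, was chosen at 12 hours with -1.15 and -0.92 and was at -0.7 and -0.1 at 24 hours. UAM1, a UDP-arabinopyranose mutase that supplies arabinofuranose for wall polysaccharides, was at -0.93 and -1.07 at 12 hours and at -0.51 and 0.24 at 24 hours. The 2 members chosen at 12 hours thus had R2 values near or above 0 at 24 hours.

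Other enzymes followed in the redox, lipid and amino acid groups. APX2, a cytosolic ascorbate peroxidase that removes hydrogen peroxide, was at -1.12 and -1.62 at 24 hours and at -0.49 and -0.81 at 12 hours, and it was below 0 in all 10 samples with the 2-hour sign turned, where R2 as deposited was at 1.42. PLD1, a phospholipase D that cleaves membrane phospholipids, was at -1.35 and -0.89 at 12 hours and at -1 and -0.55 at 24 hours. LYSA, the diaminopimelate decarboxylase that forms lysine, was at -1.22 and -0.9 at 12 hours and at -0.35 and -0.02 at 24 hours. METK3, an S-adenosylmethionine synthase, differed from these: it was at -0.93 and -1.47 at 12 hours but at 1.8 and 0.4 at 24 hours. Its spots at 12 hours were also unlike each other, with a median difference between duplicates of 0.93 over its samples and 2 spot values missing, against 0.16 for the members with a gene as a whole.

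The last named members serve membranes, organelles and DNA binding. PEX11-5, a protein of peroxisome division, was at -1.1 and -0.93 at 12 hours and close to 0 at 24 hours (-0.16 and -0.25). S1FA1, a small DNA-binding protein of a family first described in spinach, was at -1.26 and -1.24 at 12 hours and at -1.59 and -0.55 at 24 hours, and was below 0 in all 10 samples with the 2-hour sign turned (1.14 in R2 as deposited). ADIPOR3, a membrane protein related to adiponectin receptors of animals, was at -1.55 and -1.35 at 24 hours. HMA4, a heavy metal-transporting ATPase, was at -0.9 and -0.86 at 24 hours, among the 3 members nearest to the threshold at that time, and its mean without centring was -0.77, outside it.

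Some of the 21 named members left the rule when a setting was changed. Without centring of the columns, 8 of them did not meet it (CYP99A2, GLU2, HMA4, KSL7, LYSA, PEX11-5, PLD1 and RCABP69). With the first spot set alone 10 did not (CFBP1, CYP99A2, GLU2, HMA4, METK3, PEX11-5, PLD1, PORB, RCABP69 and UAM1), and with the second alone all 21 did. CERK1, JAZ1, EXPA2, APX2, HCT1, 4CL-3, PRX74, ADIPOR3 and S1FA1 met it under each of these 3 alternatives.

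**Figure D3:**
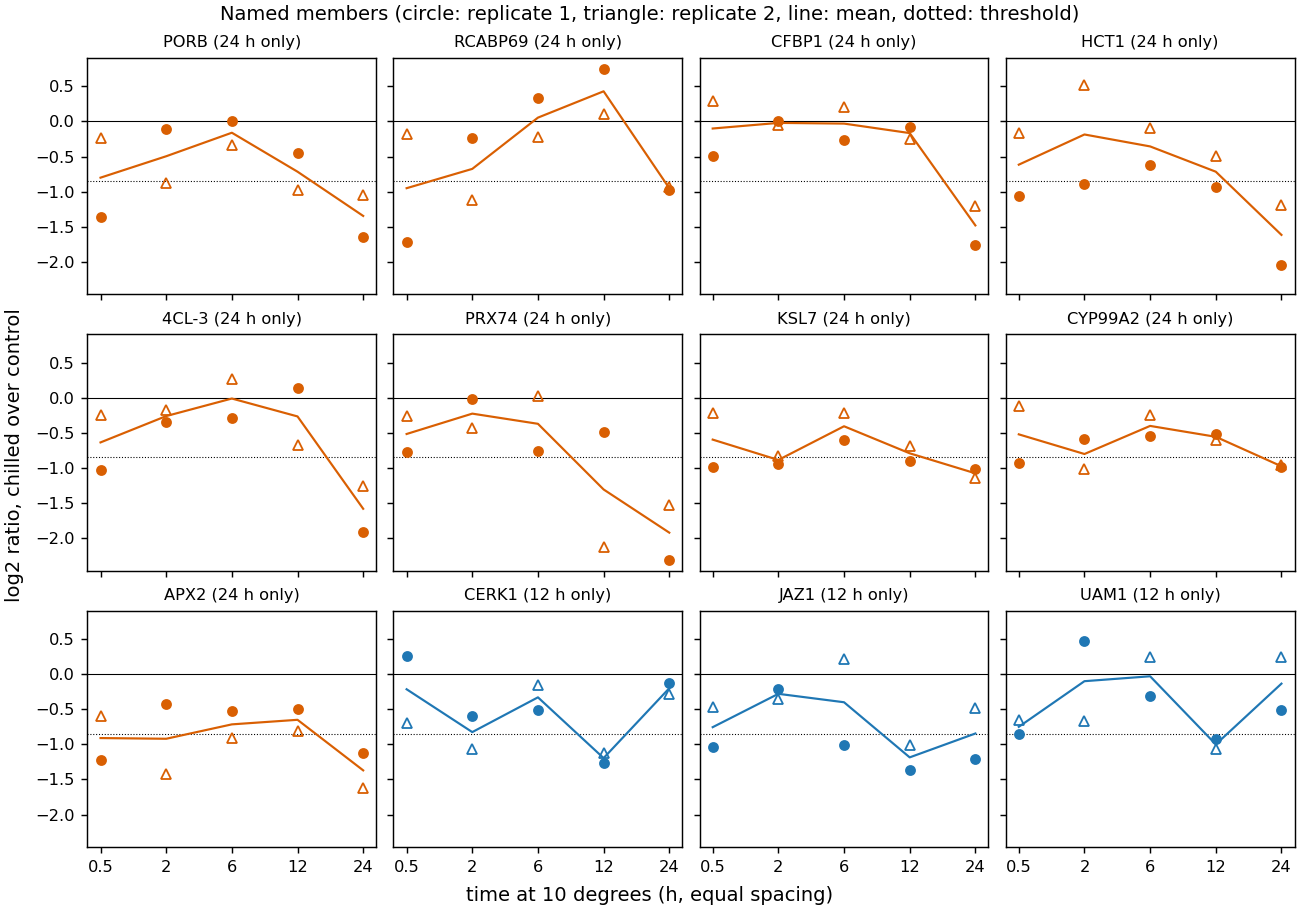
Log2 ratio of chilled over control shoots of 12 named members against time of chilling, with R1 as circles, R2 as open triangles and their mean as a line. The dotted line is the threshold of -0.848. The mean of CFBP1 lies between -0.16 and -0.02 until 12 hours, RCABP69 is above 0 at 12 hours, and CERK1 and UAM1 are low at 12 hours and near 0 in the mean at 24 hours.

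The 4 members with a gene that met the threshold at both times have no gene name in the tables used, and all 4 had every spot past it at both times. LOC4349929 was the lowest, at -1.57 (R1) and -1.32 (R2) at 12 hours and -2.64 and -1.26 at 24 hours. LOC4341644 was at -0.98 and -1.21, then -2.25 and -1.48, and LOC4343070 was at -0.97 and -1.38, then -2.17 and -1.33. Their 24-hour values were lower than their 12-hour values by more than 1 in R1, while R2 changed less. LOC4339005 did not follow this, with -1.47 and -0.99 at 12 hours and -1.16 and -1.06 at 24 hours.

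Among the unnamed members chosen at 1 time, LOC4327740 had the lowest 12-hour mean of those with all their spots, at -2.08 and -1.58, and was at -1.48 and -0.65 at 24 hours. LOC4336973 was at -1.6 and -1.31 at 12 hours, LOC4343487 at -1.19 and -1.51, LOC4340004 at -1.23 and -1.27 and LOC4333703 at -1.26 and -1.19, so the replicates of each differed by less than 0.35. A further feature of the gene LOC4343487 was at 0.01 and -0.16 at 12 hours. At 24 hours LOC4352829 was at -1.75 and -1.22, and a feature with several genes was at -2.27 and -1.76. The lowest means rested on thinner data. LOC4348153, at -3.76 and -0.94 at 12 hours, lacked 10 of its 20 spot values, and LOC4348547, at -4.8 and -1.68 at 24 hours, lacked 4 and had no R1 value at 12 hours. The R2 value of LOC4348153 at 12 hours averaged duplicate spots of 0.93 and -2.82. A further feature of the gene LOC4348153 was at 0.13 and 0.31 at 12 hours.

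The threshold separated features with nearly the same values. At 12 hours LOC4332033 (-0.952 in R1 and -0.849 in R2), LOC4349403 (-0.849 and -1.105) and LOC4332739 (-0.856 and -0.949) were just inside, and LOC4338515 (-0.844 and -1.086), LOC4332441 (-0.839 and -1.633) and LOC4342270 (-0.834 and -3.856) were just outside. At 24 hours HMA4 (-0.895 and -0.86), LOC4327090 (-2.05 and -0.862) and a feature with several genes (-0.902 and -0.852) were just inside. LOC4332441 (-1.596 and -0.811), LOC4342569 (-1.062 and -0.789) and HPT1 (-1.076 and -0.776) were just outside. LOC4332441 thus missed the threshold narrowly at both times, in R1 at 12 hours and in R2 at 24 hours.

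Most members chosen at one late time were on the same side of 0 at the other. Of the 41 chosen at 12 hours only, 33 were below 0 in both replicates at 24 hours and 2 were above 0 in both, where 32.3% of features with a gene were below 0 in both replicates. At 24 hours 20 of the 41 were past the threshold in R1 but only 1 in R2, and the medians were -0.87 in R1 and -0.36 in R2. Of the 31 chosen at 24 hours only, 21 were below 0 in both replicates at 12 hours and 2 above, against 32.5% of features with a gene below 0. At 12 hours 4 of the 31 were past the threshold in R1 and 6 in R2, and the medians were -0.49 and -0.59. These shares are counts within the contrasts that chose the members, and nothing is read from them.

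**Figure D4:**
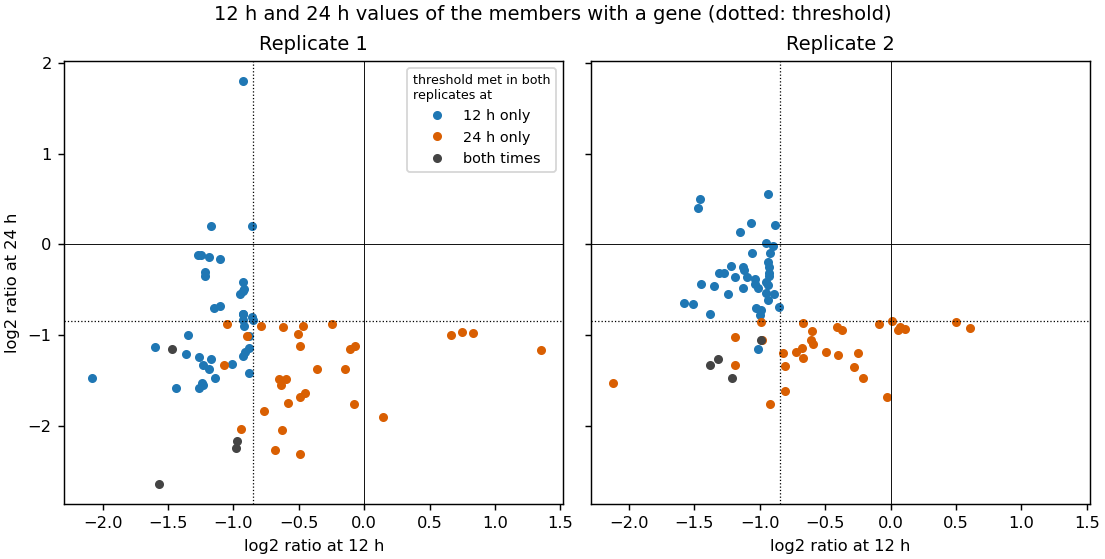
Log2 ratio at 24 hours against that at 12 hours for the members with a gene, R1 on the left and R2 on the right, with the threshold dotted. In R1 20 of the 41 members chosen at 12 hours (blue) lie below the threshold at 24 hours as well, in R2 1 of them does, and the members chosen at 24 hours (orange) spread from -2.12 to 0.61 at 12 hours in R2.

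The values at 0.5, 2 and 6 hours took no part in the choice, apart from the rule that a member was not higher in both replicates. In limma's moderated test of each time point's mean, fitted to 5926 features that had values in each of the 10 samples, 73 of the 76 members with a gene were tested. With Benjamini-Hochberg adjustment over all features at 0.05, 0 of them were lower at 0.5, 2 or 6 hours and 0 were higher. Among the 4245 tested features with a gene the same test called 2, 0 and 0 lower (0.0471%, 0.0% and 0.0%). At an unadjusted p under 0.05, 26, 25 and 13 of the 73 were lower at these 3 times, in order, and 0 were higher at each. For features with a gene as a whole, 8.65%, 6.05% and 1.51% were lower at that level. The fit and its alternatives estimated the spread from all 5 time points. The late values that chose the members thus entered these early tests, and nothing is read from the difference in shares. In the same fit with the 2-hour sign of R2 as deposited, 15, 1 and 5 of the 73 were lower, against 4.76%, 0.754% and 0.612% of features with a gene, and again 0 after adjustment. With the duplicate spots kept apart and the replicate as a random block, and the 2-hour sign turned, limma called 2 of the 83 members tested lower at 0.5 hours and 6 at 2 hours, against 0.31% and 0.583% of all features tested. LOC4332336 was called at both times with adjusted p = 0.021 and 0.0264.

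The members with a gene had medians below 0 at every early time in both replicates. At 0.5 hours the medians were -0.79 in R1 and -0.47 in R2, against -0.07 and 0.03 for features with a gene, and 45 of the 75 with both values were below 0 in both replicates, against 25.6% of such features. At 2 hours they were -0.31 and -0.79, and 54 of 76 were below 0 in both, against 36.9%. At 6 hours they were -0.44 and -0.29, and 42 of 74 were below 0 in both, against 30.7%. Of the 74 members with all 6 early values, 20 were below 0 in all of them, against 7.65% of features with a gene. With the 2-hour sign of R2 as deposited the R2 median was 0.79, 4 members were below 0 in both replicates, and the median of the 2-hour means was 0.2 instead of -0.52.

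Members chosen at 12 hours and those chosen at 24 hours had unlike early values by replicate. At 0.5 hours the 41 chosen at 12 hours had medians of -0.2 in R1 and -0.65 in R2, and the 31 chosen at 24 hours had -0.98 and -0.17. At 6 hours 29 of the first group and 10 of the second were below 0 in both replicates, with medians of -0.54 and -0.43 in the first and -0.37 and -0.04 in the second. The groups also differed in the EST series of their features, which are described below. Of the 31 members of series CA75 and CA76, 22 met the threshold at 12 hours and 10 at 24 hours. Of the 39 of series CA99 and CB00, 19 met it at 12 hours and 23 at 24 hours. Neither the difference between the groups nor the part of the series in it was tested.

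**Figure D5:**
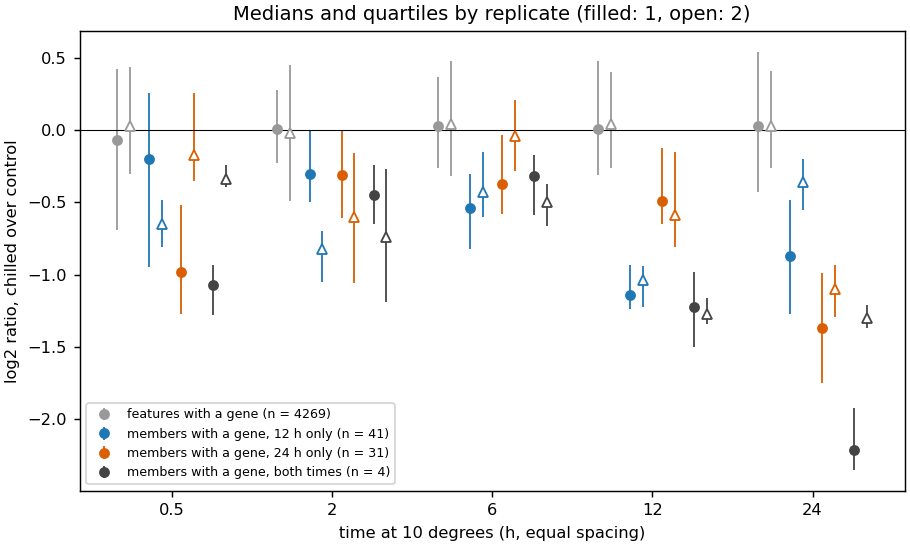
Median log2 ratio (points) with the lower and upper quartiles (bars) for features with a gene and for the members with a gene by the time that chose them, R1 filled and R2 open. The members' medians lie below 0 at each time, between -0.04 and -1.07 at 0.5, 2 and 6 hours, while those of all features with a gene lie between -0.07 and 0.04.

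The early values moved with the EST series from which a feature came. Features of series CA99 and CB00 had medians at 0.5 hours of -0.75 in R1 and 0.4 in R2, and those of series CA75 and CA76 had 0.12 and -0.07. Members made up 3.42% of the first and 1.15% of the second, with 39 and 31 members, and 1.24% of series CB09, with 5. Within CA99 and CB00 the members had medians of -0.99 and -0.34 at 0.5 hours and -0.36 and -0.14 at 6 hours, where all features of these series had 0.28 and 0.48. Within CA75 and CA76 the members were at 0 and -0.53 at 0.5 hours and at -0.49 and -0.52 at 6 hours. The part of the series in the members' values was not tested. With each EST series set to a median of 0, the median at 6 hours was -0.51 instead of -0.36.

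A few members were already past the threshold in both replicates early. They were 6 of the 76 with a gene, against 1.08% of features with a gene at any of the 3 times. LOC4344071 had the lowest 6-hour mean of the members with a gene that had both values, with -1.44 (R1) and -0.99 (R2), and it went from -0.9 and -0.54 at 0.5 hours to -0.9 and -0.77 at 24 hours. It was below -0.5 in all 10 samples with the 2-hour sign turned, where R2 as deposited was at 1.21. Its mean at 6 hours was -1.21 with a limma standard error of 0.273 and an adjusted p of 0.143. It was the only feature with a gene past the threshold in both replicates at 6 hours (0.0234% of them).

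LOC4332336 was past the threshold at 0.5 hours (-1.35 and -0.87), at 2 hours (-1 and -1.09) and at 12 hours (-0.93 and -0.99), and narrowly missed it at 24 hours (-0.84 and -0.72). Its adjusted p by limma was 0.0675 at 0.5 hours, the lowest value among the members, shared with LOC4341639 and 2 members without a gene, and 0.157 at 2 hours. LOC4341639 reached -1.27 and -1.08 at 0.5 hours (adjusted p by limma 0.0675), was at -0.07 and -0.59 at 12 hours and was chosen at 24 hours with -1.12 and -1.1. With the sign turned, LOC4352829 was at -1.91 and -0.93 at 2 hours, and LOC4348153, with 10 of its 20 spot values missing, at -2.37 and -2.15. At 0.5 hours 0.4% of features with a gene were past the threshold in both replicates, and at 2 hours 0.914%. With the sign of R2 as deposited, 0 members with a gene were past the threshold at 2 hours.

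Some member genes were represented by further features on the same slides, which the rule had not chosen. There were 13 such features for 11 member genes or gene groups. At the time that chose the member, 3 of the 13 were below 0 in both replicates, 4 were above 0 in both and 6 had replicates on opposite sides of 0, and 0 passed the threshold. The nearest was a second feature of PEX11-5, at -0.83 and -0.81 at 12 hours beside the member's -1.1 and -0.93. Others went the opposite way: a second feature of GLU2 was at 1.38 and 0.3 at 12 hours, and one of LOC4346056 was at 1.24 and 1.84 at 24 hours, where the member was at -1.49 and -1.33. Both further features of ADIPOR3 were near 0 at 24 hours (0.29 and 0, and 0.03 and 0.03) while the member was at -1.55 and -1.35. Features were assigned to genes by the platform annotation, and cDNA probes can also bind transcripts of related genes.

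Gene lists of processes were matched on gene symbols and synonyms only, so they were short, and they held few members. They missed members described above: CFBP1 was not in the sugar list and RCABP69 not in the photosynthesis list. GLU2 and UAM1 were not in the cell wall list. Of 16 lists, 5 had 1 member each and 11 had 0. The photosynthesis and chlorophyll list had 5 features and PORB as a member. Its median was 0.22 at 12 hours and -0.58 at 24 hours, against 0.05 and 0.04 for features with a gene. In that list CHLG, the chlorophyll synthase, was at -0.86 and -0.62 at 12 hours and at -1.08 and -0.73 at 24 hours. It was outside the rule in 1 replicate at each time. The rest of the list differed from these. AAP-S was at 0.76 and 0.31 at 12 hours and at 1.17 and 0.26 at 24 hours. CHL1 was at 0.35 and 0.09, then at 0.3 and 0.02. OsrbcS was at 0.59 and 0.02, then at -0.28 and -0.89. The redox list had 11 features, APX2 as its member and a median of 0.08 at 24 hours. Its catalase CAT-B had a pair of features on opposite sides, at -1.19 and -0.42 and at 1.3 and 0.79 at 24 hours.

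The hormone list had 23 features, with JAZ1 as its member and a median of 0.23 at 12 hours. The other JAZ features in it were JAZ6 at 0.62 and 2.16, JAZ3 at 2.12 and 0.62 and JAZ7 at 0.49 and 1.06 at 12 hours. Unlike JAZ1, they were above 0 in both replicates at that time, and none reached 0.848 in both. The cell wall list had 9 features, EXPA2 as its member and a median of 0.23 at 24 hours, and its cellulose synthase genes of the CESA family lay between -0.27 and 1.29 in each replicate at that time. The list of defense genes and peroxidases had 3 features and PRX74 as its member, with a median of -0.63 at 24 hours. Ribosomal proteins and translation (13 features), transcription factors (14), starch and sugar (10) and the cytoskeleton (17) had 0 members, with medians at 24 hours of 0.04, -0.2, 0.49 and 0.28. The root and seed marker list had 7 features and 0 members, with medians between -0.31 and 0.38 over the 5 times.

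Members with 1 gene lay on 11 of the 12 chromosomes. They were 7 of 199 features on chromosome 10 (3.52%), 14 of 686 on chromosome 1 (2.04%), 10 of 603 on chromosome 3 (1.66%) and 0 of 175 on chromosome 9. Over all features with a gene the share of members was 1.78%, and differences between chromosomes were not tested. A few members were near neighbors in the reference annotation, and whether such pairs were more frequent than among other genes was not tested. UAM1 and LOC4333387 lie on chromosome 3 with 4 protein-coding genes between them, and both were chosen at 12 hours, LOC4333387 with -0.93 and -1.45. LOC4341639 and LOC4341644 lie on chromosome 6, also with 4 genes between them, and both were low at 24 hours, with -1.12 and -1.1 and with -2.25 and -1.48. The 2 other pairs, on chromosome 1 with 9 genes between them and on chromosome 11 with 8, each held a member chosen at 12 hours and one chosen at 24 hours.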

How the data were processed

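Two-color cDNA array values were analyzed for 20 columns, the 2 spot sets of 10 slides. Per the labels and the methods, the authors subtracted background, took the ratio of medians with GenePix and Acuity and normalized to a mean ratio of 1. The deposited values are log2 ratios of chilled over control, and the number of arrays limits their precision. Intensities were not used here. Both R2 columns at 2 hours were multiplied by -1, each column's median was set to 0, and duplicate spots were averaged. limma 3.58.1 in R 4.3.3 fitted 1 mean per time point (residual degrees of freedom 5, prior 7.04) to 5926 features and was checked on simulated data. Replicates are independent biological samples. Genes came from the platform annotation and names, or synonyms read as names, from the RefSeq rice annotation: 4172 features had 1 gene, 97 several and 1811 none, and features with several genes are not named. Named were members with a gene name, the 10 lowest at 12 and at 24 hours, those low at both times or early, those in lists and those next to the threshold. Outside this rule, LOC4346056, LOC4333387, CHLG, AAP-S, CHL1, OsrbcS, CAT-B, JAZ3, JAZ6, JAZ7 and the CESA genes were chosen after their values were seen. Members and lists were chosen with earlier results of these data known. Alternatives were the centring, the 2-hour sign, each spot set, missing spots, averaging, the fold rule, a replicate or random block, robust estimation of the spread, only complete features and each replicate left out. Promoter sequences were not analyzed here.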

Additional observations from a re-analysis of the deposited data

Results flagged for a closer look

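Of the members named in this report, those with both replicates above 0 at another time, opposite to the time that chose them, are listed. The difference between the times was not tested for any of them. Among all 76 members with a gene, 1, 3, 4, 2 and 2 were above 0 in both replicates at the 5 times in order. These counts have the 2-hour sign of R2 turned, and they include members that are not named. METK3, low at 12 hours, had a mean of 1.1 at 24 hours (1.8 in R1 and 0.4 in R2) and of 0.21 at 2 hours (0.28 and 0.14). Its duplicate spots at 24 hours were unlike each other, at 0.02 and 3.58 in R1 and at -0.88 and 1.69 in R2. RCABP69, low at 24 hours, had a mean of 0.43 at 12 hours (0.75 and 0.11). LOC4348547, low at 24 hours, had a mean of 1.07 at 2 hours (0.19 and 1.94), LOC4340004, low at 12 hours, 0.45 at 0.5 hours (0.72 and 0.18), LOC4327090, low at 24 hours, 0.29 at 6 hours (0.02 and 0.56), and LOC4332739, low at 12 hours, 0.1 at 24 hours (0.2 and 0.01). With the 2-hour sign of R2 as deposited, the R2 values of METK3 and LOC4348547 at 2 hours are -0.14 and -1.94, and both replicates are no longer above 0. With 2 replicates per time point no group was large enough for an outlier test.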

How the results depend on the processing

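The choice of members depended on the rule. With 1.5-fold in both replicates there were 308 members and 211 with a gene, and 107, 164, 38, 210 and 157 features were lower at the 5 times in order, where 1.8-fold gave 36, 70, 7, 97 and 57. With 2-fold there were 86 and 35, and 23, 45, 4 and 57 lower at 0.5, 2, 6 and 12 hours. With 1.8-fold in the mean of the replicates there were 244 and 153, and 196, 155, 48, 170 and 163 lower. With 1.8-fold in all 4 spots there were 48 and 36, and 14, 43, 1, 30 and 25 lower. Without centring, 45 members had a gene, 21 features were lower at 0.5 hours and 25 at 2 hours, and 1 member was lower by limma at 0.5 hours. For the 76 members with a gene described above, the 12-hour median was then -0.89 instead of -0.98. With the 2-hour sign as deposited, 5 features were lower at 2 hours and the median there reversed to 0.2. Spot set 1 alone gave 91 members, 50 with a gene, 37 features lower at 24 hours and a 12-hour median of -0.93, and spot set 2 alone a median of -1.03. Where both spots were required, 22, 1 and 59 features were lower at 0.5, 6 and 12 hours. A pair of alternatives was chosen after seeing the data. Without the last 8 positions of each run there were 90 members, 89 of them shared with the 138, and 22, 1 and 55 features lower at 0.5, 6 and 12 hours. With each EST series centred, there were 144 members, 123 of them shared, and the medians at 6 and 12 hours were -0.51 and -1.05. With a random block, 2 members were lower at 0.5 hours and 6 at 2 hours.

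Leaving out a replicate lets the other one decide at its time. The number of members then ranged from 118 to 520 and of those with a gene from 74 to 354. It was 235 without R1 and 344 without R2 at 12 hours, and 520 without R2 at 24 hours. Features lower ranged from 36 to 1107 at 0.5 hours, from 70 to 506 at 2 hours, from 7 to 112 at 6 hours, from 97 to 338 at 12 hours and from 57 to 489 at 24 hours. Members lower by limma ranged from 0 to 2 at 0.5 hours and from 0 to 1 at 2 and at 6 hours. The medians of the 76 members with a gene chosen on all replicates, not of the members chosen anew, ranged from -0.79 to -0.47 at 0.5 hours, from -0.79 to -0.31 at 2 hours, from -0.44 to -0.29 at 6 hours, from -0.98 to -0.93 at 12 hours and from -1.15 to -0.75 at 24 hours.

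Samples with the same replicate number were not taken as pairs, since deviations from the time means correlated over 0.1 in only 5 of 10 pairs of time points, from -0.26 to 0.28, with 0.21, 0.28 and 0.25 among 6, 12 and 24 hours. With the replicate block, limma called 0 members lower at 0.5, 2 and 6 hours, and 37, 33 and 20 of 97 at an unadjusted p under 0.05, against 8.99%, 7.56% and 2.4% of all features. The late values that chose the members entered the spread in that fit too.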
